A study of Mus musculus with 15 samples.

Results

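Oxidative phosphorylation is carried out by 5 protein complexes of the inner mitochondrial membrane, and the genes of their subunits were followed here in vascular tissue of hypertensive and normal mice. Members were the protein-coding genes of the GENCODE M21 annotation whose symbols mark them as a subunit of complex I (Nduf genes with a letter and number, mt-Nd genes), complex II (Sdha to Sdhd), complex III (Uqcr genes, mt-Cytb), complex IV (Cox4 to Cox8 genes, mt-Co genes) or complex V (Atp5 genes, mt-Atp genes). They numbered 95 of the 32930 genes in the deposited table, 82 encoded in the nucleus and 13 in the mitochondrial genome. The complex was assigned by symbol alone. Ndufa4 is today counted with complex IV, Cox7a2l with the supercomplexes, and Atp5s is not a core subunit of the ATP synthase.

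Complex I (NADH dehydrogenase) and complex II (succinate dehydrogenase) pass electrons to ubiquinone, complex III passes them on to cytochrome c, and complex IV (cytochrome c oxidase) passes them to oxygen. Complexes I, III and IV pump protons, and complex V, the ATP synthase, uses the proton gradient to make ATP. The mitochondrial genome encodes a few subunits of every complex but complex II, and all other subunits are made from nuclear genes and imported. Brown adipocytes, which surround many mouse vessels, hold large amounts of these proteins, as do heart and skeletal muscle.

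The study compared 3 groups of C57BL/6 mice of 10 weeks, with 5 total RNA libraries each. The Lien group is labelled as hypertension plus Lien, which the series title names as liensinine, an alkaloid of the lotus; the AngII group is labelled as hypertension, induced with AngII (the usual short form of angiotensin II) according to the title; and the NS group is labelled as normal. All libraries are labelled vascular tissue, whereas the text on RNA extraction speaks of hearts. Dose, route, vessel, sex and the mouse behind each library are not in the labels, so p-values measure the spread between these libraries, which may in part be technical.

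The smooth muscle list (Acta2, Myh11 and 8 others) had a mean log2(FPKM + 1) of 4.62 to 7.02 in every library, so its genes were present throughout. Its standard deviation over the libraries was 0.61. That of the white adipocyte (0.21), endothelial (0.29), fibroblast (0.51) and macrophage (0.57) lists was smaller. The T cell (1.34), B cell (1.32) and mesothelial (0.67) lists and the lists given next varied more. The T cell list was highest in AngII 9 (4.44), AngII 7 (4.28), NS 2 (3.34) and Lien 11 (2.76). The B cell list was highest in the same libraries, at 4.86, 4.75, 3.48 and 3.61 in that order. The cardiomyocyte list ranged between 0.62 in AngII 7 and 6.47 in NS 5, and the skeletal muscle list between 0.70 in Lien 13 and 9.14 in NS 3. The nerve list was at 3.60 to 4.96 in 6 libraries (Lien 11; AngII 6, 7 and 9; NS 2 and 3) and at 1.15 to 2.19 in the other 9. The brown adipocyte list, taken without its 2 member genes, was lowest in NS 3 (3.72) and Lien 11 (3.73) and highest in Lien 15 (5.95). Ucp1, the uncoupling protein of brown fat, was listed at 143 FPKM in Lien 11 and at up to 1921 FPKM in Lien 13. In such bulk libraries, fewer cells of a type and less RNA per cell cannot be told apart.

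Values are FPKM, the authors' fragment counts set against transcript length and sequencing depth, which are scaled by transcript length and can be compared between genes. The 95 members took a large part of the table. Nuclear members made up 1.79% (Lien 11) to 5.04% (Lien 13) of the summed FPKM, and mitochondrial members made up 4.86% (AngII 9) to 21.4% (AngII 10). A gene entered the tests when at least 5 libraries reached 0.5 FPKM, which 15586 genes did. Of the members, 81 of 82 nuclear and 9 of 13 mitochondrial ones passed. Ndufa13 did not, being listed at 0 in 14 libraries and at 15.9 FPKM in NS 5. The other exceptions were mt-Nd4, mt-Nd4l, mt-Atp6 and mt-Atp8.

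Promoter windows of the nuclear members are given first. These members moved together across libraries, as shown further on, and whether their promoters have a part in that was not tested. RefSeq promoter windows of GRCm38.p6, with 250 bases before and 50 after each gene start, were matched to 66 nuclear members through gene identifiers, with 71 windows in all. Each was searched on both strands for GCGCANGCG (bound by NRF1), CCGGAAG (bound by ETS factors such as GABPA) and TNAAGGTCA (bound by the estrogen-related receptors). GCGCANGCG was in 21 of the 71 member windows (29.6%), against 2053 of all 32851 windows (6.25%). CCGGAAG was in 16 member windows (22.5%), against 2910 of all windows (8.86%). TNAAGGTCA was in 3 member windows (4.23%), against 421 of all windows (1.28%). These shares describe letters in a window and were not tested, and a match is not shown to be a site.

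The windows of 5 members are printed 5′ to 3′ on the gene's strand, with matches to any of the 3 motifs, on either strand, in capitals. Sdhd, a membrane anchor of complex II (chr9:50603800-50604099, minus strand), was chosen because its window holds all 3 motifs. Uqcrc1, a core subunit of complex III (chr9:108936398-108936697, plus strand), and Cox6a1, the widely expressed form of a complex IV subunit (chr5:115348909-115349208, minus strand), are abundant members with GCGCANGCG; the Cox6a1 window also holds CCGGAAG. A run of 10 capitals is a pair of overlapping GCGCANGCG matches on opposite strands. Cox8a, the widely expressed form (chr19:7217567-7217866, minus strand), and Cox8b, the form known from heart, skeletal muscle and brown fat (chr7:140900397-140900696, minus strand), show a pair of isoforms that differ: the Cox8a window holds CCGGAAG, and none of the 3 motifs is in the Cox8b window.
Sdhd promoter: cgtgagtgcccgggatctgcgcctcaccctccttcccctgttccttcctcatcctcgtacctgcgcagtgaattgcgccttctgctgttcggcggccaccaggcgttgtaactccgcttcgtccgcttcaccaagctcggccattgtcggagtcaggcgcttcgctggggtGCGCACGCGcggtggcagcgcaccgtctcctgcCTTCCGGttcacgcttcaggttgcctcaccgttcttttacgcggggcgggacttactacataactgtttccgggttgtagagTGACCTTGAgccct
Uqcrc1 promoter: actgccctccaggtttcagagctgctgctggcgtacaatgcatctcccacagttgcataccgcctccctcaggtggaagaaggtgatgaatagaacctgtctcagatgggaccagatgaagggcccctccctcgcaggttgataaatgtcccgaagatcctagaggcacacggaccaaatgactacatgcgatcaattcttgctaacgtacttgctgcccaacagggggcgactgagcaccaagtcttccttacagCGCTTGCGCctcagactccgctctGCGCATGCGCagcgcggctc
Cox6a1 promoter: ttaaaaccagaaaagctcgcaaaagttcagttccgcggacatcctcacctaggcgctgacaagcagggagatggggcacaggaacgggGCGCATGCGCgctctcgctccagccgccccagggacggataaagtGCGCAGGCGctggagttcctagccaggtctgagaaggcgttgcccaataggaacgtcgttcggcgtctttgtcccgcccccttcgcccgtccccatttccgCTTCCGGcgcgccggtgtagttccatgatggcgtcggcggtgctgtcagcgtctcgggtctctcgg
Cox8a promoter: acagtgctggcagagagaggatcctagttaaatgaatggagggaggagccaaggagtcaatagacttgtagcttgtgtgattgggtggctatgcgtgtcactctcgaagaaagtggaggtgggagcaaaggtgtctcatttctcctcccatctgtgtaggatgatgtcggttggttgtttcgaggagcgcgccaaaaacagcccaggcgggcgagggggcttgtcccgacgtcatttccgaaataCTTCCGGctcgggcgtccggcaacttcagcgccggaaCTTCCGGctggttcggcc
Cox8b promoter: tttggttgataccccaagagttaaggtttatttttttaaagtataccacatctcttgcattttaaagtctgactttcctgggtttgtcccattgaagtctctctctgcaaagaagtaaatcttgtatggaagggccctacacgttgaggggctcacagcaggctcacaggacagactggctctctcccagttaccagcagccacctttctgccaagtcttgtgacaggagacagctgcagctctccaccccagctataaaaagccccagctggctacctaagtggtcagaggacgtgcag

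Across the 15 libraries, the nuclear members varied largely as a block. Their mean log2(FPKM + 1) was 6.15, 7.54, 7.72, 7.69, 7.36 in Lien 11 to 15, 6.88, 7.06, 7.60, 7.06, 6.75 in AngII 6 to 10, and 7.32, 6.94, 6.54, 7.41, 7.46 in NS 1 to 5. Lien 11 was the lowest of all libraries and the other 4 Lien libraries were among the higher ones, with Lien 15 below NS 4 and NS 5. The NS and AngII ranges overlapped with each other and with Lien. The group means were 7.29 in Lien, 7.07 in AngII and 7.13 in NS. Lien 11 was the lowest library for 57 of the 81 members and NS 3 for 14, so that 71 had their lowest value in 1 of these 2. Lien 13 was the highest for 41 and Lien 14 for 21.

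Every complex was lowest in Lien 11, while the highest library varied. The mean log2(FPKM + 1) of complex I was 5.83 in Lien 11 and 7.41 in Lien 14, its lowest and highest libraries. Complex II ranged between 6.26 in Lien 11 and 8.20 in Lien 13, complex III between 6.99 and 8.97 in the same libraries, and complex V between 6.46 and 7.67 in them. Complex IV was lowest in Lien 11 (6.11) and highest in AngII 8 (7.93). The median member spanned 3.58-fold between its lowest and highest library. The standard deviation of log2(FPKM + 1) over the 15 libraries had a median of 0.50 for nuclear members, against 0.38 for all 15586 genes tested.

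**Figure D1:**
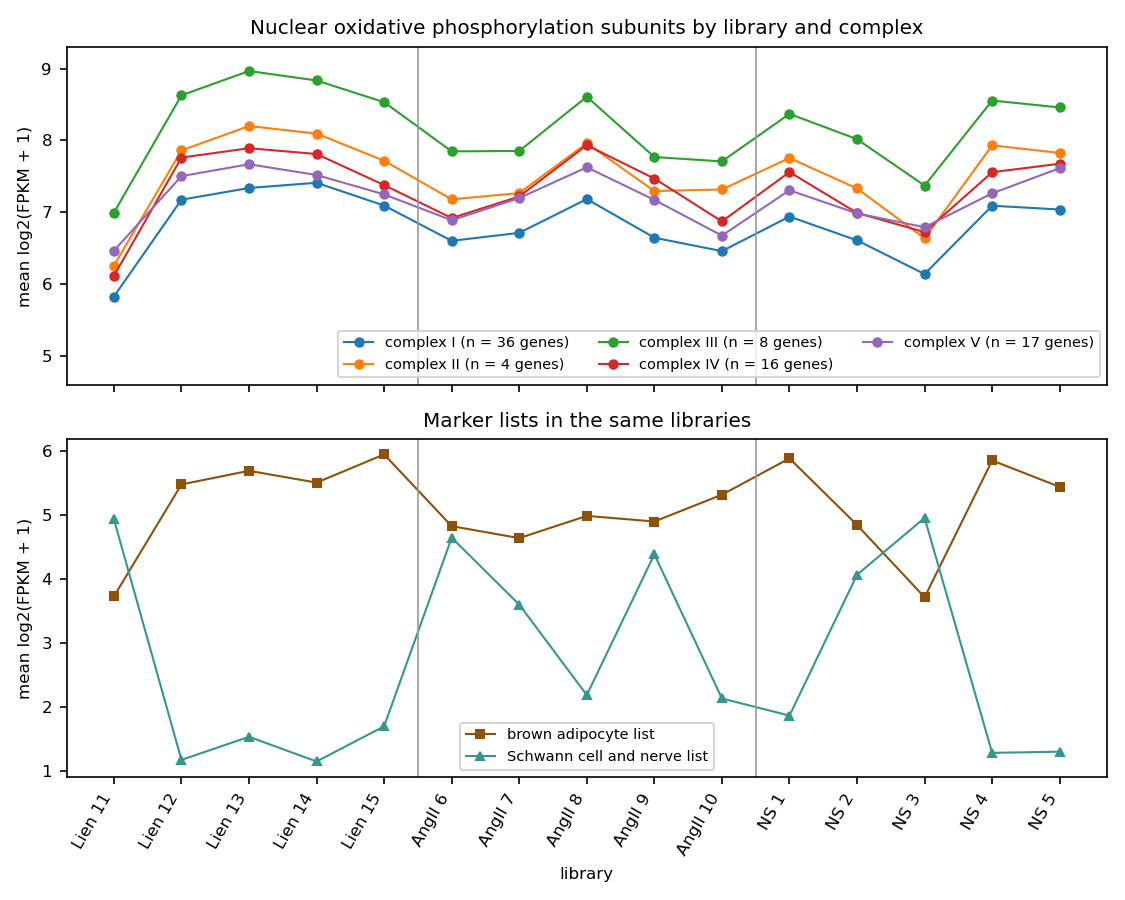
The upper panel plots the mean log2(FPKM + 1) of the nuclear members of each complex (lines and colours) in each of the 15 libraries (x axis, in the order Lien, AngII, NS, with grey lines between groups); the lower panel plots the brown adipocyte list, without its 2 member genes, and the nerve list on the same scale. Complexes I to IV have their 2 lowest values in Lien 11 and NS 3 (complex V in Lien 11 and AngII 10), and Lien 11 and NS 3 are the libraries with the lowest brown adipocyte values (3.73 and 3.72) and the highest nerve values (4.94 and 4.96).

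The level of the nuclear members tended to be lower in nerve-rich libraries, with overlap and exceptions. In the 6 libraries richest in nerve genes the mean of the nuclear members was 6.15 to 7.06, and in the other 9 it was 6.75 to 7.72. AngII 10 was at 6.75 with a nerve list of 2.14 and a brown adipocyte list of 5.32. Lien 15, highest in the brown adipocyte list (5.95), was at 7.36. Ucp1 was 143 to 803 FPKM in those 6 and 613 to 1921 FPKM in the other 9. Within the 9, the mean of the nuclear members was 7.57 over 4 Lien libraries, 7.18 over 2 AngII libraries and 7.40 over 3 NS libraries. Within the 6 it was 6.15 in 1 Lien library, 7.00 over 3 AngII libraries and 6.74 over 2 NS libraries. The nerve-rich libraries were thus 1 of 5 in Lien, 3 of 5 in AngII and 2 of 5 in NS, and their part in the differences between groups was not tested beyond the covariate fits.

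No member passed the test in any of the 3 comparisons, in limma on log2(FPKM + 1) with Benjamini-Hochberg adjustment over all 15586 genes. The tests called few genes of any kind: 2 genes (0.0128% of those tested) in Lien against AngII, 36 (0.231%) in Lien against NS and 12 (0.077%) in AngII against NS. At an unadjusted p under 0.05, 1 of 90 members was lower in AngII than in NS and 1 was higher in Lien than in AngII, in each case Uqcrfs1, while 7.04% and 6.40% of all genes passed that mark. In Lien against NS 0 of 90 did, against 7.06% of all genes. No member had groups that did not overlap in any comparison, while 0.982% of all genes had them in Lien against AngII, 1.8% in Lien against NS and 2.03% in AngII against NS.

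The small differences of the nuclear members nevertheless leaned one way where Lien was involved. In Lien minus AngII, 75 of 81 nuclear members had a positive difference (92.6%) and their median was 0.22 on the log2 scale; over all genes tested 29.8% were positive and the median was -0.13. The 36 members of complex I, the 4 of complex II and the 8 of complex III all had positive differences, with medians of 0.25, 0.23 and 0.26. Complex IV was more mixed, with 11 of 16 positive and a median of 0.10. Complex V had 16 of 17 positive and a median of 0.18.

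In Lien minus NS, 72 of 81 nuclear members were positive (88.9%) with a median of 0.19, against 47.8% and a median of -0.01 for all genes. In AngII minus NS, 36 of 81 were positive (44.4%) with a median of -0.02, against 70.1% and 0.12 for all genes. Complex IV was the complex with the largest share above 0 in AngII minus NS, at 12 of 16 with a median of 0.16. The members share libraries and move together, so these counts are descriptions of 15 libraries and not of 81 separate observations, and the comparisons share groups.

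The size of these differences depended on single libraries. In Lien minus AngII, 65 to 77 of 81 nuclear members stayed positive when any 1 library was left out, with medians of 0.09 to 0.54. Without Lien 11, the median of the nuclear members was 0.54 in Lien minus AngII and 0.46 in Lien minus NS. At an unadjusted p under 0.05 in limma, 46 of 81 nuclear members were then higher in Lien than in AngII and 36 higher than in NS, against 3.47% and 4.93% of all genes. None passed after adjustment (smallest adjusted p of a nuclear member 0.221 and 0.158). Without NS 3, only 44 of 81 were positive in Lien minus NS, and 15 of 81 in AngII minus NS. With the nerve list as a covariate, chosen after seeing the data, 15 of 81 were positive in Lien minus AngII, with a median of -0.12; with the muscle and brown fat lists as covariates 56 were.

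**Figure D2:**
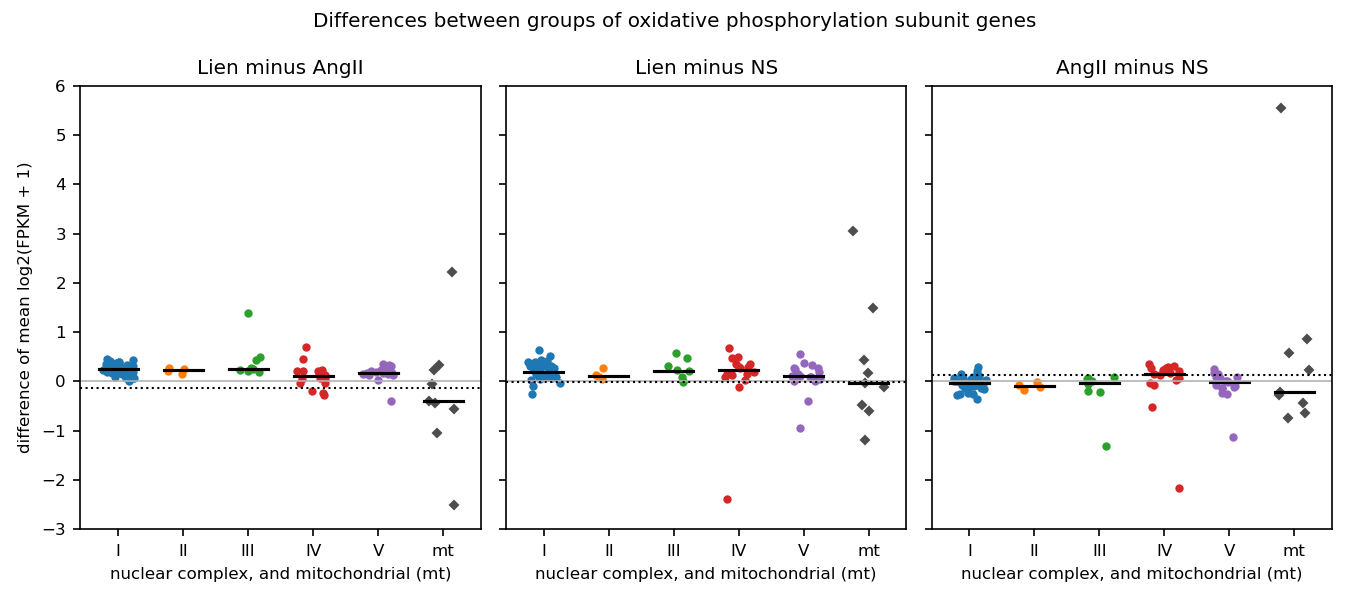
Each point is the difference of mean log2(FPKM + 1) of 1 member in the comparison named above the panel, by complex for nuclear members and as diamonds for the 9 tested mitochondrial (mt) members; bars are medians, the dotted line is the median of all genes tested and the grey line is 0. In Lien minus AngII the nuclear medians lie at 0.10 to 0.26, above the all-gene median of -0.13, and mitochondrial members scatter widely.

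**Figure D3:**
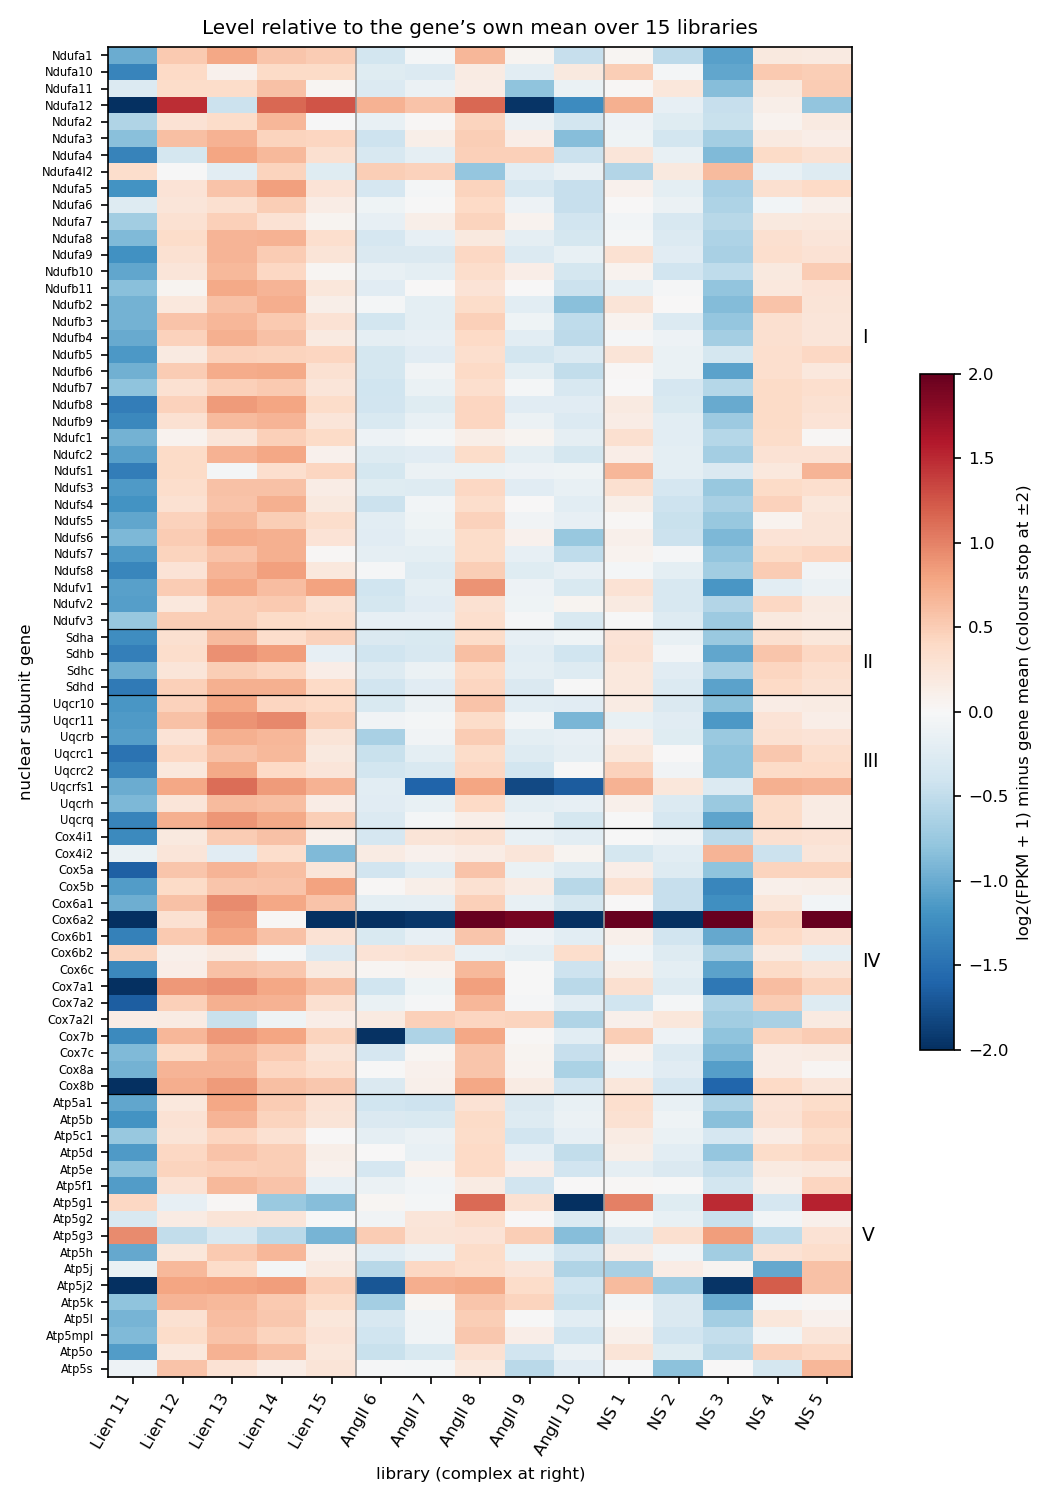
Each of the 80 rows is a tested nuclear member, grouped by complex, and each column a library; colour is log2(FPKM + 1) minus the gene's own mean over 15 libraries (red higher, blue lower). Lien 11 and NS 3 are blue in most rows, Lien 12 to 15 and AngII 8 red, and Uqcrfs1, Cox6a2, Atp5g1 and Ndufa12 depart from the block. The mean of the nuclear members was also above that of all libraries (7.16) in NS 1 (7.32), NS 4 (7.41) and NS 5 (7.46). NS 4 and NS 5 exceeded Lien 15 (7.36).

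Among the nuclear subunits of complex I, 36 had mean levels between 11.6 and 385 FPKM with a median of 127. Ndufb9, an accessory subunit, had the highest mean. It averaged 436 ± 175 FPKM in Lien, 350.1 ± 81.2 FPKM in AngII and 370.1 ± 103 FPKM in NS (SD, n = 5 each), and its group means differed by less than the standard deviation in Lien.

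Ndufa11, an accessory subunit of the membrane arm, and Ndufa8, another accessory subunit, had the smallest p of the nuclear members of complex I in Lien against AngII. Ndufa11 was listed at 46.5, 73.1, 73.3, 85.7 and 58 FPKM in Lien 11 to 15, 46.8, 52, 62.6, 32.2 and 51.7 FPKM in AngII 6 to 10, and 57.7, 66.4, 30.9, 65.2 and 81 FPKM in NS 1 to 5. Lien 14 was highest and NS 3 and AngII 9 lowest, and all 3 groups overlapped. The difference in Lien minus AngII was 0.45 ± 0.25 on the log2 scale (SE; limma, unadjusted p = 0.0900, adjusted p = 0.740). Ndufa8 averaged 144 ± 50.2 FPKM in Lien, 102 ± 17 FPKM in AngII and 111 ± 28.4 FPKM in NS.

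Ndufv1, the subunit that takes electrons from NADH, was listed at 45.4, 139, 167, 149.6 and 169.5 FPKM in Lien 11 to 15, 73.8, 85.1, 182, 90.7 and 78 FPKM in AngII 6 to 10, and 118, 77.1, 42.8, 83.5 and 89.5 FPKM in NS 1 to 5. AngII 8 and 4 of the 5 Lien libraries lay above every NS library, while Lien 11 was at the level of NS 3. Lien minus NS was 0.63 ± 0.37 (SE; limma, unadjusted p = 0.108, adjusted p = 0.809). Ndufa6, another accessory subunit, was the steadiest nuclear member of complex I, with a standard deviation of 0.30 over the libraries on the log2 scale. Ndufs1, which carries iron-sulfur clusters, averaged 80.0 ± 30.9 FPKM in Lien, 68.2 ± 5.02 FPKM in AngII and 91.5 ± 28.6 FPKM in NS.

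Ndufa12, a late-joining accessory subunit, was the most variable nuclear member of complex I. It was listed at 4.87, 67.1, 17.2, 53.3 and 57.5 FPKM in Lien 11 to 15, 38.7, 35.4, 53.2, 5.28 and 9.31 FPKM in AngII 6 to 10, and 39.3, 20.8, 16.9, 25.6 and 13.2 FPKM in NS 1 to 5. Low values stood in each group, the lowest in Lien 11, AngII 9 and AngII 10. A processed pseudogene, Gm15920, is 99.5% identical to it over 402 bases, so its reads may have been divided. Ndufa4 averaged 302 ± 146 FPKM in Lien, 274 ± 85.5 FPKM in AngII and 272 ± 82.6 FPKM in NS, and its paralog Ndufa4l2, known from smooth muscle and pericytes, 11.9 ± 2.86 FPKM in Lien, 11.5 ± 4.27 FPKM in AngII and 11.4 ± 4.15 FPKM in NS. Ndufa4l2 made up 1.62% to 12.1% of the sum of the 2, with the largest share in Lien 11.

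Complex II has 4 members and no mitochondrial one. Sdha, the flavoprotein that oxidises succinate, averaged 446 ± 166 FPKM in Lien, 359 ± 75.9 FPKM in AngII and 387 ± 104 FPKM in NS (SD, n = 5 each). Sdhb, the iron-sulfur subunit, averaged 177 ± 89.3 FPKM in Lien, 133 ± 46.5 FPKM in AngII and 155 ± 54.9 FPKM in NS. The membrane anchors Sdhc and Sdhd, the second of which is shown by its promoter window above, averaged 86 and 329.8 FPKM in Lien, 74 and 248 FPKM in AngII, and 81.4 and 259 FPKM in NS. For all 4 genes Lien 11 was the lowest library and Lien 13 the highest.

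Complex III held a member that departed clearly from the block. Uqcrfs1 encodes the Rieske iron-sulfur protein, which takes the first electron from ubiquinol, and lies at chr13:30540308-30545362 (GRCm38). It was listed at 133, 453, 579, 482 and 432 FPKM in Lien 11 to 15, 229, 86.9, 462, 75.6 and 82.9 FPKM in AngII 6 to 10, and 429.9, 312, 220.1, 434 and 426 FPKM in NS 1 to 5. In AngII 7, 9 and 10 it stood at 75.6 to 86.9 FPKM, below every other library, and AngII 8 was at the level of the NS and Lien libraries.

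The other 7 nuclear subunits of complex III did not share this. The log2(FPKM + 1) of Uqcrfs1 minus their mean was -1.59, -1.72 and -1.51 in AngII 7, 9 and 10, and -0.0012 to 0.48 in the other 12 libraries. AngII minus NS for Uqcrfs1 was -1.30 ± 0.50 (SE; limma, unadjusted p = 0.0202, adjusted p = 0.636; exact permutation p = 0.0873, two-sided, smallest possible 0.00794). Lien minus AngII was 1.39 ± 0.50 (limma, unadjusted p = 0.0146, adjusted p = 0.740; exact permutation p = 0.0714). It rests on 3 AngII libraries, and only 1 transcript of the gene is in the table.

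Uqcrc1, a core subunit, averaged 439.8 ± 182 FPKM in Lien, 342 ± 78.7 FPKM in AngII and 408 ± 124 FPKM in NS (SD, n = 5 each). Uqcrh, the hinge protein near cytochrome c1, averaged 450.4 ± 157 FPKM in Lien, 369 ± 74.3 FPKM in AngII and 374 ± 104 FPKM in NS. The small subunits Uqcrq and Uqcr11 averaged 287 and 367 FPKM in Lien, 188 and 241 FPKM in AngII, and 192 and 231 FPKM in NS. In each of these 4 genes the Lien range contained the AngII range.

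**Figure D4:**
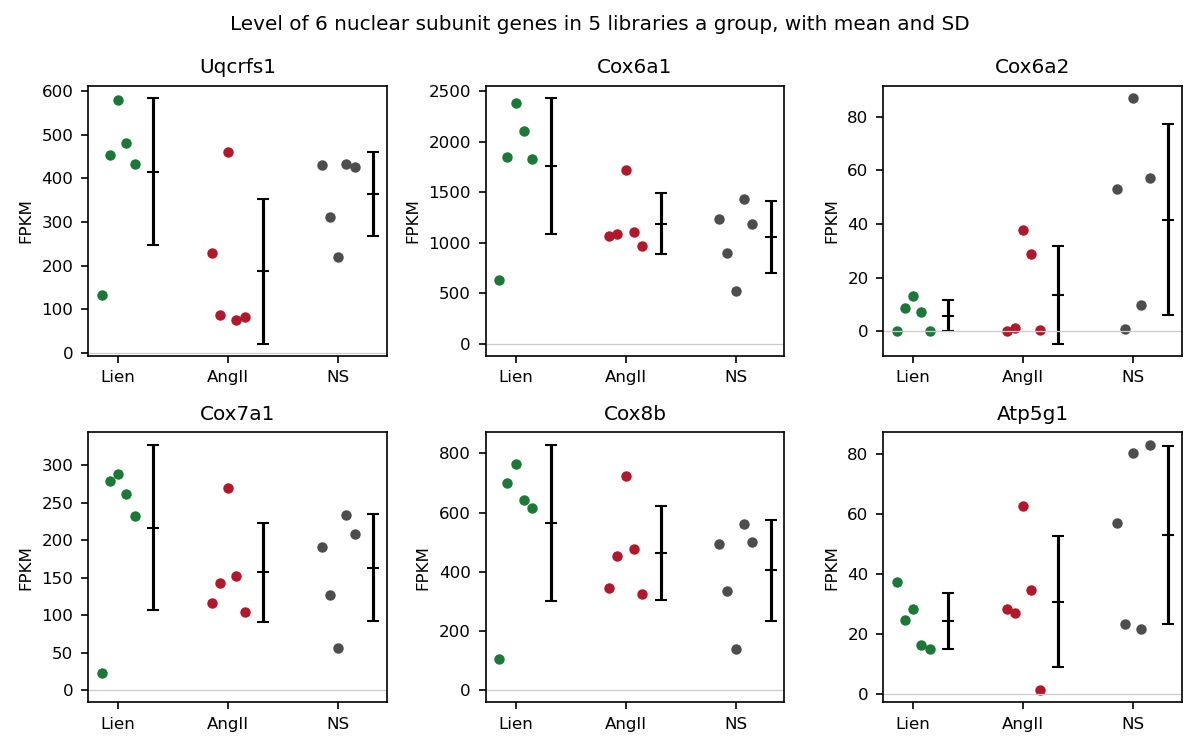
Points are the FPKM of 6 nuclear members in the 5 libraries of Lien, AngII and NS (left to right in each panel), and bars are the group mean ± SD. Uqcrfs1 is low in 3 AngII libraries, Cox6a2 is above 50 FPKM in 3 NS libraries, and Atp5g1 is lowest in AngII 10. Cox6a1, Cox7a1 and Cox8b are high in 4 of 5 Lien libraries and in AngII 8, and in Cox7a1 NS 4 exceeds Lien 15.

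Complex IV is the complex with tissue-specific isoforms, and these were read as pairs. Cox6a1, the widely expressed form, was the most abundant nuclear member of the complex. It was listed at 626, 1845, 2379, 2109 and 1828 FPKM in Lien 11 to 15, 1069, 1083, 1714, 1107 and 967 FPKM in AngII 6 to 10, and 1233, 895, 523, 1431 and 1188 FPKM in NS 1 to 5. Of the Lien libraries, 4 exceeded every AngII and NS library, and Lien 11 stood below every AngII library. Lien minus NS was 0.69 ± 0.36 (SE; limma, unadjusted p = 0.0737, adjusted p = 0.750).

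Cox6a2, the heart and skeletal muscle form, varied most of all nuclear members. It was listed at 0.161, 8.67, 13.1, 7.03 and 0.125 FPKM in Lien 11 to 15, 0.0903, 1.05, 37.7, 28.6 and 0.28 FPKM in AngII 6 to 10, and 53.1, 0.923, 86.9, 9.87 and 57.3 FPKM in NS 1 to 5. The highest values were in NS 3, NS 5, NS 1, AngII 8 and AngII 9. Of these, NS 3 and AngII 9 had the highest skeletal muscle lists (9.14 and 6.53), and NS 5, AngII 8 and NS 1 the highest cardiomyocyte lists (6.47, 5.89 and 5.62). AngII minus NS was -2.16 ± 1.27 and Lien minus NS -2.40 ± 1.27 (SE; limma, unadjusted p = 0.112 and 0.0801, adjusted p = 0.733 and 0.753). With the skeletal muscle, cardiomyocyte and brown fat lists as covariates these were 0.011 and 0.066. Cox6a2 made up at most 14.2% of the sum of the 2 isoforms, in NS 3.

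Cox7a1 and Cox8b are the muscle and brown fat forms, and unlike Cox6a2 they were abundant in every group. Cox8b was listed at 104, 699, 763, 643 and 616 FPKM in Lien 11 to 15, 345, 452, 724, 476 and 324 FPKM in AngII 6 to 10, and 492, 334, 139.7, 560.5 and 499.6 FPKM in NS 1 to 5. Lien 11 and NS 3 were the lowest, and the groups overlapped. Cox7a1 followed, at 22.9, 279, 288, 262 and 232 FPKM in Lien 11 to 15, 116, 144, 270.1, 152 and 105 FPKM in AngII 6 to 10, and 191, 127, 56.2, 234 and 209 FPKM in NS 1 to 5. Again Lien 11 and NS 3 were lowest, the 2 libraries lowest in the brown adipocyte list.

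As a share of the isoform pair, Cox8b made up 36.6% ± 8.07 of Cox8a plus Cox8b in Lien, 38.7% ± 3.46 in AngII and 38.4% ± 5.45 in NS (SD, n = 5 each). Cox7a1 made up 40.3% ± 9.25 of Cox7a1 plus Cox7a2 in Lien, 38.6% ± 3.28 in AngII and 42.3% ± 10.7 in NS. These shares differed between groups by less than their spread. Cox4i2, the form known from lung and hypoxic cells, made up 0.247% to 1.49% of the Cox4 pair, and Cox6b2, known from testis, 0.602% to 3.61% of the Cox6b pair. Cox4i1 averaged 810.4 ± 313 FPKM in Lien, 730.2 ± 148 FPKM in AngII and 747 ± 164 FPKM in NS.

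Cox7b, a small accessory subunit encoded on the X chromosome, was listed at 57.7, 224, 257, 244 and 191 FPKM in Lien 11 to 15, 35.2, 91.3, 242, 143 and 121 FPKM in AngII 6 to 10, and 199, 132, 79.9, 192 and 201 FPKM in NS 1 to 5. AngII 6 was the lowest library of all. Lien minus AngII was 0.70 ± 0.49 (SE; limma, unadjusted p = 0.178, adjusted p = 0.740). Cox7a2l, the supercomplex factor, did not follow the block: it was highest in AngII 7 (222 FPKM) and in Lien 11 (177 FPKM) exceeded 3 of the other Lien libraries. Its group values were 159 ± 26.5 FPKM in Lien, 188 ± 48.9 FPKM in AngII and 147 ± 43.8 FPKM in NS. Cox7b2 and Cox8c have no transcript in the table and were not analysed here.

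In complex V, Atp5b, the catalytic beta subunit, was the most abundant nuclear member of all. It was listed at 582, 1630.2, 2143, 1819.6 and 1600.4 FPKM in Lien 11 to 15, 1090.2, 1078, 1733, 1112 and 1223 FPKM in AngII 6 to 10, and 1644, 1251, 748, 1620.3 and 1803 FPKM in NS 1 to 5. Lien 11 and NS 3 were lowest and Lien 13 highest. Atp5a1, the alpha subunit, averaged 804 ± 305 FPKM in Lien, 598 ± 132 FPKM in AngII and 712 ± 186 FPKM in NS (SD, n = 5 each). Atp5k, the small subunit e, was listed at 40.1, 115, 111, 103 and 91.2 FPKM in Lien 11 to 15, 44, 73.1, 105, 96.8 and 51.7 FPKM in AngII 6 to 10, and 68.4, 57.8, 35.3, 69.1 and 71.9 FPKM in NS 1 to 5. Its Lien minus NS difference was 0.55 ± 0.32 (SE; limma, unadjusted p = 0.103, adjusted p = 0.796), with Lien 11 inside the NS range. Atp5s averaged 4.55 ± 0.933 FPKM in Lien, 3.35 ± 0.816 FPKM in AngII and 3.59 ± 1.77 FPKM in NS.

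Atp5g1, Atp5g2 and Atp5g3 encode the same mature subunit c of the rotor ring, from different precursors. Atp5g2 was the steadiest nuclear member, with a standard deviation of 0.23 on the log2 scale, and averaged 172 ± 26.3 FPKM in Lien, 169.8 ± 29.2 FPKM in AngII and 151 ± 20.2 FPKM in NS. Processed pseudogenes identical to stretches of Atp5g2 (Gm10175 and Gm10231) are also in the table. Atp5g1 was listed at 37.5, 24.8, 28.4, 16.3 and 15 FPKM in Lien 11 to 15, 28.5, 27.2, 62.6, 34.6 and 1.38 FPKM in AngII 6 to 10, and 57.1, 23.3, 80.3, 21.8 and 83.1 FPKM in NS 1 to 5. AngII 10 was far below all others, and NS 5, NS 3 and AngII 8 were highest. A processed pseudogene, Gm10039, is 99.8% identical to Atp5g1 over 411 bases. It was listed at 9.59 to 36.5 FPKM, with 11.2 FPKM in AngII 10, so reads of Atp5g1 may have been divided.

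AngII minus NS for Atp5g1 was -1.13 ± 0.70 (SE; limma, unadjusted p = 0.132, adjusted p = 0.737) and -0.33 without AngII 10. Atp5g3 ran against the block, with its highest values in Lien 11 (105 FPKM) and NS 3 (96.5 FPKM). It averaged 50.1 ± 31 FPKM in Lien, 62.5 ± 19.5 FPKM in AngII and 62.4 ± 23.2 FPKM in NS. As shares of the sum with Atp5g2, Atp5g1 made up 12.6% ± 5.75 in Lien, 14% ± 8.24 in AngII and 25% ± 12 in NS, and Atp5g3 made up 22.1% ± 12.5 in Lien, 26.5% ± 6.27 in AngII and 29% ± 9.97 in NS.

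The mitochondrial members differed from the nuclear ones in kind. The 13 listed values did not move as a block, and single genes differed by several orders of magnitude between libraries. mt-Cytb, the cytochrome b of complex III, was listed at 9304, 21853, 29697, 3.06 and 2.22 FPKM in Lien 11 to 15, 14373, 16173, 19467, 3.13 and 25516 FPKM in AngII 6 to 10, and 0.74, 20392, 15288, 0.821 and 1.05 FPKM in NS 1 to 5. It was at 0.740 to 3.13 FPKM in 6 libraries (Lien 14 and 15, AngII 9, NS 1, 4 and 5) and at 9304 to 29697 FPKM in the other 9. AngII minus NS was 5.56 ± 3.74 on the log2 scale (SE; limma, unadjusted p = 0.158, adjusted p = 0.746). The low libraries numbered 2 of 5 in Lien, 1 of 5 in AngII and 3 of 5 in NS.

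The table also holds 30229 assembled transcripts with no public identifier. Of the 20 that reach 1000 FPKM in a library, 3 from a single assembled locus were higher in each of those 6 libraries than in any of the other 9. Their sum was 8018 to 22499 FPKM in the 6 and 31.1 to 496 FPKM in the 9. These 3 were picked for being higher in the 6. Another transcript of the same locus went the other way, at 6.52 to 159 FPKM in the 6 and 942 to 2877 FPKM in the 9. The remaining ones of the locus at this level overlapped between the 6 and the 9. mt-Co1, the catalytic subunit of complex IV, also tended lower in the 6, at 10798 to 25680.1 FPKM, against 23234 to 70046 FPKM in the 9, and the 2 ranges overlapped. The locus of the assembled transcripts is not given in the table, and whether they hold reads of mt-Cytb was not tested.

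**Figure D5:**
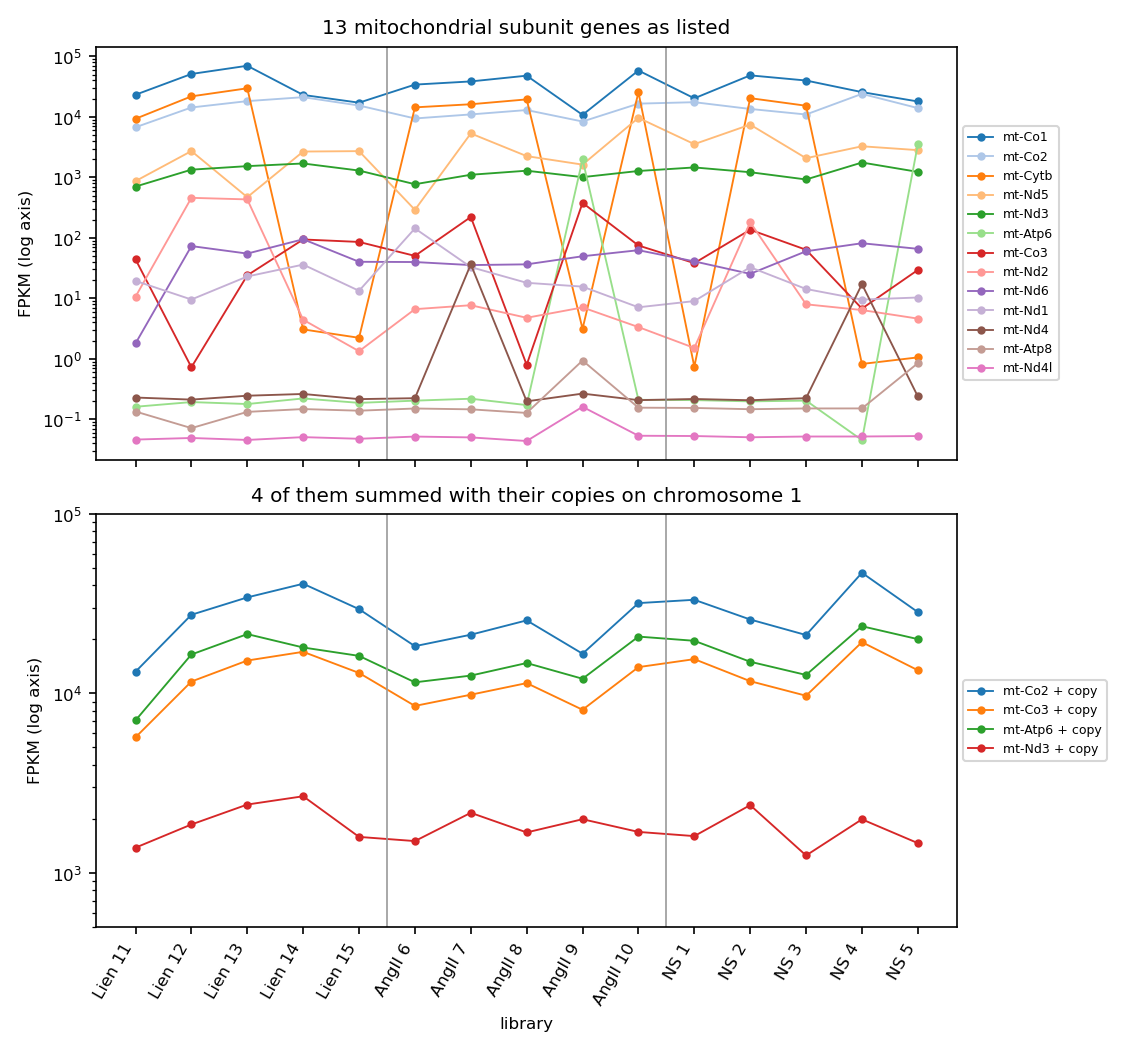
The upper panel plots the listed FPKM (log axis) of the 13 mitochondrial members in each library, in the order Lien, AngII, NS; the lower panel plots mt-Co2, mt-Co3, mt-Atp6 and mt-Nd3 after adding their near-identical copies on chromosome 1. mt-Cytb is at 0.740 to 3.13 FPKM in 6 libraries and mt-Atp6 is listed near 0 in 13, whereas the 4 sums move within a range of 1249 to 47060 FPKM without such gaps.

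A stretch of nuclear chromosome 1 (chr1:24612407-24616197, GRCm38) carries unprocessed pseudogenes that copy the mitochondrial sequence, and reads cannot be placed between identical copies. Gm10925 is 100% identical to mt-Atp6, Gm28661 to mt-Co2 and Gm28437 to mt-Co3 over their aligned lengths. Gm29216 differs from the 3′ part of mt-Co1 at 1 of 483 bases, and Gm28438 differs from mt-Nd3 at 1 of 345 bases. These 2 differences are shown because they are the only ones within the aligned stretches of these pairs. The mitochondrial base comes first in A1066T (mt-Co1 and Gm29216) and T3C (mt-Nd3 and Gm28438), counted from the 5′ end of the mitochondrial transcript, and it is in capitals.
mt-Co1: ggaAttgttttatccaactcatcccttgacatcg
Gm29216: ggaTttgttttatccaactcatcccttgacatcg
mt-Nd3: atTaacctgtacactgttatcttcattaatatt
Gm28438: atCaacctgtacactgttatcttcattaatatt

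The copies carried much of the listed signal. mt-Atp6, the proton channel subunit of complex V, was at 0.0452 to 0.221 FPKM in 13 libraries, at 1978 FPKM in AngII 9 and at 3497 FPKM in NS 5, while Gm10925 was listed at 7077 to 23699 FPKM. Over 99% of the sum stood at the copy in 13 libraries for mt-Atp6 and in 12 for mt-Co3, a complex IV core subunit. For mt-Co2, another core subunit, the copy took 46.9% to 50.8%. For mt-Nd3, a complex I subunit, the copy took 8.96% to 49.3%. Gm29216, the copy of the 3′ part of mt-Co1, was at 9006 to 20976 FPKM in the 6 libraries low in mt-Cytb. In the other 9 it was at 6023 to 18365 FPKM, so it was not lower in the 6 as mt-Co1 tended to be. How reads were divided between Gm29216 and mt-Co1 was not tested.

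Summed with its copy, mt-Co2 reached 13219.6, 27451, 34309, 40878 and 29503 FPKM in Lien 11 to 15, 18345, 21252, 25544, 16651 and 31891 FPKM in AngII 6 to 10, and 33273, 25832, 21164, 47059.6 and 28416 FPKM in NS 1 to 5. NS 4 and Lien 14 were highest and Lien 11 lowest, and the groups overlapped. The sum for mt-Atp6 was 7078, 16487, 21420.1, 18038 and 16196 FPKM in Lien 11 to 15, 11534, 12575, 14775, 12074 and 20743 FPKM in AngII 6 to 10, and 19656, 15021, 12679, 23699 and 20079 FPKM in NS 1 to 5, with the same lowest library and NS 4 highest. The sum for mt-Co3 ranged over 5694 to 19318 FPKM, and that for mt-Nd3 over 1249 to 2672 FPKM. The standard deviations of these 4 sums on the log2 scale were 0.32 to 0.49, near those of the nuclear members.

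Alone, mt-Co2 was listed at 6735, 14307, 18226, 21177 and 15412 FPKM in Lien 11 to 15, 9418, 10984, 12974, 8381 and 16561 FPKM in AngII 6 to 10, and 17498, 13523, 10949, 24025 and 13984 FPKM in NS 1 to 5. AngII 9, AngII 6 and Lien 11 were among the lowest, and AngII minus NS was -0.44 ± 0.33 (SE; limma, unadjusted p = 0.196, adjusted p = 0.763). mt-Co1 averaged 36952 ± 22758 FPKM in Lien, 38008 ± 17845 FPKM in AngII and 30494 ± 13238 FPKM in NS (SD, n = 5 each). mt-Nd3 averaged 1314 ± 376 FPKM in Lien, 1089 ± 214 FPKM in AngII and 1317 ± 312 FPKM in NS.

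The remaining complex I genes of the mitochondrion differed widely in listed level although all but mt-Nd6 are transcribed together from the same strand. mt-Nd5 was listed at 867, 2721, 469.9, 2672 and 2715 FPKM in Lien 11 to 15, 290.4, 5325, 2245, 1624 and 9642 FPKM in AngII 6 to 10, and 3541, 7451, 2074, 3265 and 2819 FPKM in NS 1 to 5. AngII 6 was lowest and AngII 10 highest, and Lien minus NS was -1.19 ± 0.79 (SE; limma, unadjusted p = 0.153, adjusted p = 0.850). mt-Nd2 was at 181 to 459 FPKM in Lien 12, Lien 13 and NS 2 and at 1.33 to 10.6 FPKM in the other 12; its Lien minus AngII difference was 2.22 ± 1.43 (limma, unadjusted p = 0.143, adjusted p = 0.740).

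mt-Nd1 ranged over 7.10 to 143 FPKM, mt-Co3 alone over 0.724 to 379 FPKM and mt-Nd4 over 0.198 to 36.5 FPKM. mt-Atp8 and mt-Nd4l as listed stayed below 1 FPKM in every library. Each overlaps its neighbour, mt-Atp6 and mt-Nd4, on the same strand. Gm10222, a copy in the same stretch of chromosome 1, is 100% identical to mt-Nd4l over 294 bases. It was listed at 1143 FPKM in AngII 7 and below 1 FPKM in every other library. mt-Nd6, the member on the opposite strand, ranged over 1.79 to 94.7 FPKM, with its lowest value in Lien 11. The labels do not say whether counting used strand, so reads of mt-Nd6 and of the transcripts opposite to it cannot be told apart.

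The balance of mitochondrial to nuclear members depended on which mitochondrial values were used. As listed, the summed FPKM of the 13 mitochondrial members was 3.27 ± 1.44 times that of the 82 nuclear members in Lien, 4.18 ± 2.25 times in AngII and 3.77 ± 2.26 times in NS (SD, n = 5 each). With the 4 genes summed with their copies alone, the ratio was 2.77 ± 0.31 in Lien, 2.93 ± 1.02 in AngII and 3.67 ± 0.54 in NS. AngII 10 had the highest ratio in each measure (7.68 and 4.7). By the second measure the Lien range (2.42 to 3.21) overlapped the NS range (2.91 to 4.25).

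Genes that build or feed the complexes were read from 4 lists, and none of them held a gene that passed the limma test in any comparison. Of 49 assembly factors, 39 had a positive difference in Lien minus AngII (median 0.17), 42 in Lien minus NS (median 0.21) and 35 in AngII minus NS (median 0.06). Over all genes tested, 29.8%, 47.8% and 70.1% were positive in these comparisons, with medians of -0.13, -0.01 and 0.12. The assembly factors were near the share of all genes in AngII minus NS and above it in the other comparisons. Cox11, which delivers copper to complex IV, averaged 7.98 ± 0.88 FPKM in Lien, 5.80 ± 0.79 FPKM in AngII and 5.57 ± 1.21 FPKM in NS (SD, n = 5 each). Its unadjusted p was 0.0158 in Lien against AngII and 0.00690 in Lien against NS, with adjusted p of 0.740 and 0.443. Surf1, another complex IV assembly factor, averaged 32.3 ± 3.24 FPKM in Lien, 32.5 ± 3.11 FPKM in AngII and 25.2 ± 3.96 FPKM in NS, with an adjusted p of 0.533 in AngII against NS.

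Of 23 genes for electron carriers and uncoupling, 19 had a positive difference in Lien minus AngII (median 0.17), 12 in Lien minus NS (median 0.03) and 4 in AngII minus NS (median -0.20). Of 31 genes of mitochondrial DNA expression, which include the polymerase and its factors, 16 were positive in Lien minus AngII (median 0.01), 23 in Lien minus NS (median 0.08) and 21 in AngII minus NS (median 0.04). Of the 17 biogenesis regulators tested, 7 were positive in Lien minus AngII (median -0.08), 7 in Lien minus NS (median -0.12) and 10 in AngII minus NS (median 0.05). The shares over all genes tested were 29.8%, 47.8% and 70.1%. In AngII minus NS the DNA expression list was near that share, and the electron carrier and regulator lists were below it. In Lien minus AngII each of these lists was above it.

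Nrf1, a transcription factor of nuclear subunit genes whose motif is shown above, averaged 5.41 ± 0.99 FPKM in Lien, 6.36 ± 1.94 FPKM in AngII and 3.75 ± 1.35 FPKM in NS (SD, n = 5 each). Its adjusted p in limma was 0.726 in Lien against NS and 0.583 in AngII against NS. Sirt1, a deacetylase that acts on PGC-1alpha, averaged 5.85 ± 2.63 FPKM in Lien, 9.18 ± 0.87 FPKM in AngII and 8.81 ± 0.76 FPKM in NS, with an adjusted p of 0.740 in Lien against AngII. Esrrg, an estrogen-related receptor, was listed at 0 in all 5 AngII libraries and in NS 2 and NS 3. It was at 0.0609 to 1.52 FPKM in Lien and at 1.66 to 1.95 FPKM in the other NS libraries. These values lie near the filter of 0.5 FPKM. Its adjusted p in limma was 0.582 in AngII against NS. Its Lien and AngII values did not overlap, as for 0.982% of all genes tested.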

How the data were processed

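Total RNA from 15 libraries was depleted of ribosomal RNA and sequenced, per the labels' protocols. The authors deposited 1 table of 131437 transcripts; its unit is not named, and its values behave as FPKM (fragments scaled by transcript length and depth), which is how the deposited values are read here. The aligner, counter, strand setting and genome build were not given in the sources used here; the submitters' processing notes name limma. The depth is not stated: low values lie on regular steps, which would correspond to about 1.57e+07 to 1.93e+07 fragments a library if the commonest step is 1 fragment, so no count test was run.

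The 99965 transcripts with an identifier in GENCODE M21 (GRCm38) were summed into 32930 genes. limma 3.58.1 in R 4.3.3 was fitted with trend and robust options to log2(FPKM + 1) over all 15 libraries with 3 group means, for 15586 genes at 0.5 FPKM or more in at least 5 libraries, with Benjamini-Hochberg adjustment and a threshold of 0.05. A difference on this scale understates the change of low genes. The fit was tested on simulated data for AngII against NS, with 15586 genes that varied independently of each other. There it found 55% to 61% of genes changed by 1 on the log2 scale and 84% to 89% of those changed by 2. The nuclear members move together, and their median standard deviation was above that of all genes (0.50 against 0.38). These rates need not hold for them. Copies of mitochondrial transcripts were found with blastn 2.17.0.

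Named genes were all 13 mitochondrial members, for each complex the nuclear members with the 2 smallest p per comparison and the 2 highest means, and the paired isoforms; Ndufa12 was added after its values were seen, and 1 gene under this rule is not reported here. Of the other lists, named genes were taken from the 2 with the smallest p in each comparison. The members, lists and tests were chosen with earlier results of these data known. Alternatives covered pseudocount, filters, scaling, covariates, transcript type and each library left out; the nerve covariate, rescaling without copies and summing with copies were chosen after seeing the data.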

Additional observations from a re-analysis of the deposited data

Results flagged for a closer look

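In groups of 5 libraries, a library was marked when its gap to the nearest other made up more than 0.71 of the group's range. Chance marks about 1 in 20 groups; here 31 of 126 were marked, and since members move together these are few separate events.

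Lien 11 was the lowest Lien library by this measure for the mean log2(FPKM + 1) of all nuclear members (6.15, the others 7.36 to 7.72), for their share of summed FPKM (1.79%, the others 4.45% to 5.04%), and for complex I (5.83), complex II (6.26), complex III (6.99) and complex IV (6.11). On the same log2 scale it was marked for Atp5b (9.19), Atp5k (5.36), Cox4i1 (8.24), Cox6a1 (9.29), Cox6b1 (7.46), Cox7a1 (4.58), Cox7a2 (6.19), Cox7b (5.88), Cox8a (8.50), Cox8b (6.71), Ndufv1 (5.54), Sdha (7.33), Uqcrc1 (7.07), Uqcrfs1 (7.06) and mt-Nd6 (1.48).

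AngII 8 was the highest AngII library for complex II (7.96, the others 7.18 to 7.32), complex III (8.61), Atp5b (10.8), Cox6a1 (10.7), Cox6b1 (9.36), Cox7a2 (8.50) and Ndufv1 (7.52). AngII 10 was the lowest AngII library for Atp5g1 (1.25) and Atp5g3 (4.92), and AngII 9 for mt-Cytb (2.05, the others 13.8 to 14.6). Lien 11 had a nerve list of 4.94 and a brown adipocyte list of 3.73, and AngII 8 had a cardiomyocyte list of 5.89; their part in these values was not tested.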

How the results depend on the processing

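No member was called under any of the 28 alternatives to the fit (smallest adjusted p of a member 0.158, without Lien 11). The count of all genes called moved by over 1.5 times. In AngII minus NS it was 12, against 2 with no filter, 23 with quantile normalization, 6 with scaling to 1 median, 0 with muscle and brown fat covariates, 7 without NS 3 and AngII 9, and 24 with the nerve covariate. In Lien minus AngII it was 2, against 1 with a filter at 1 FPKM, quantile normalization, scaling to 1 median or muscle and brown fat covariates. In Lien minus NS it was 36 (5 higher, 31 lower), against 23 with no filter, 11 with muscle and brown fat covariates, 18 without NS 3 and AngII 9, and 58 with the nerve covariate; it was 10 higher and 19 lower with scaling to 1 median. Leaving out 1 library gave 1 to 17, 1 to 3 and 11 to 36.

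The count of nuclear members with a positive difference depended on scaling and tissue content. In AngII minus NS it was 36, against 21 with quantile normalization, 15 with scaling to 1 median, 74 with muscle and brown fat covariates, 15 without NS 3 and AngII 9, 17 when rescaled without copies and 68 with the nerve covariate (15 to 53 leaving out 1 library). In Lien minus AngII it was 75, against 15 with the nerve covariate (65 to 77 leaving out 1 library). In Lien minus NS it was 72, against 44 without NS 3 and AngII 9 and 43 with the nerve covariate (44 to 77 leaving out 1 library). Quantile normalization took the median of all genes to -0.00 in AngII minus NS, against 0.12; the nuclear median was then -0.13. Of 14 single differences printed, 12 kept their sign everywhere. Cox6a2 turned to 0.066 in Lien minus NS and 0.011 in AngII minus NS with muscle and brown fat covariates; the cause was not tested. No paired analysis was possible because the groups share no replicate numbers.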

Other observations

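The levels of 4 genes of the list for electron carriers and uncoupling, picked after their values were seen, are given here without a test. Cytochrome c (Cycs) averaged 138 ± 64.5 FPKM in Lien, 89.9 ± 22.7 FPKM in AngII and 119 ± 37.2 FPKM in NS (SD, n = 5 each). Cyc1, the cytochrome c1 of complex III that the symbol rule does not take in, averaged 337 ± 135 FPKM in Lien, 264 ± 52.3 FPKM in AngII and 289 ± 117 FPKM in NS. Ucp1 averaged 1226 ± 669 FPKM in Lien, 589 ± 214 FPKM in AngII and 1054 ± 522 FPKM in NS. Slc25a4, the ADP/ATP carrier of heart and muscle, averaged 175 ± 12.5 FPKM in Lien, 182 ± 49.9 FPKM in AngII and 237 ± 89.5 FPKM in NS.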
